A study of Mus musculus with 12 samples.

Results

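Growth factors made by myeloid cells were followed across 12 cultures of mouse dendritic cells. The members were every probe set annotated to 1 of 9 listed genes: the ligand genes Igf1, Pdgfa, Pdgfb, Pdgfc, Hgf, Hbegf, Areg and Ereg, and Igfbp4, the gene of a binding protein. Of these 9 genes 8 had a probe set, 22 probe sets in all out of 34945 that were annotated to a single gene. Areg had none in the annotation used here and is not analysed. The single Ereg probe set lay below the median of its array on all 12 arrays, with signals between 1.52 and 17.2, and was not tested. The remaining 21 probe sets passed the filter, so that 7 genes were tested among 12429.

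Marrow of BALB/c and BL6 mice aged 6 to 8 weeks grew for 10 days in GM-CSF at 20 ng/ml, which all cultures received and which yields dendritic cells from marrow. The 6 conditions were no retinoid, all-trans retinoic acid (RA, 10 nmol/ml in the sample labels) and Ro41-5253 (Ro, 100 nmol/ml), an antagonist of the alpha form of the retinoic acid receptor, each with and without LPS (1 ug/ml). Both retinoids were present from the start of culture, and the time of LPS exposure is not given separately. Each condition was measured on 1 BALB/c and 1 BL6 array, and the labels do not tell if separate animals were used within a strain. The p-values therefore describe only the variation among these 12 arrays, not that among animals of a strain. This variation includes how far BALB/c and BL6 differ in a change, which cannot be told apart from technical variation. Fewer cells of a type and less RNA per cell cannot be told apart in such bulk samples. Markers of dendritic cells were present: 14 of 14 listed genes were tested, and their summed signal lay between 40708 and 74540. In this sum Cd74 alone averaged 14005 without LPS, and Flt3 53.9. Markers of macrophages and monocytes were present too, with a summed signal over 13 genes between 18260 and 88441. These sums therefore do not tell the cell types apart. Of 5 cytokine and enzyme genes known to respond to LPS 5 rose with it, with Il6 6.74 ± 0.28 higher on the log2 scale. Of 6 retinoid response genes 0 passed for RA. With Ro 1 of the 6 passed, Dhrs3, a retinaldehyde reductase gene, which fell by 2.26 on the log2 scale, and Cyp26b1, Cyp26a1, Rarb, Rara and Tgm2 did not pass.

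Insulin-like growth factor 1 acts through a receptor tyrosine kinase and promotes growth and survival. Tissue macrophages are a known source of it, and Igfbp4 binds it and limits its access to the receptor. PDGF chains form dimers that act on mesenchymal cells, HGF signals through Met, and HB-EGF, amphiregulin and epiregulin are membrane-anchored ligands of the EGF receptor family that proteases release. Macrophages supply several of these factors in wound repair.

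The 250 bases before the gene start used in a RefSeq promoter table (build GRCm38.p6, plus strand) are shown for a pair of ligand genes that changed with Ro: Igf1, chr10:87860861-87861110, and Pdgfc, chr3:81036166-81036415. Capitals mark AGGTCA, the core letters of retinoic acid receptor elements.
Igf1: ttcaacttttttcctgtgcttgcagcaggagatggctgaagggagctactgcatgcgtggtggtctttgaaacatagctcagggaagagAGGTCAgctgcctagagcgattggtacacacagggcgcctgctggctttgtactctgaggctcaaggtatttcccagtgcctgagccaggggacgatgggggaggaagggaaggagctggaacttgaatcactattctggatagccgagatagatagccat
Pdgfc: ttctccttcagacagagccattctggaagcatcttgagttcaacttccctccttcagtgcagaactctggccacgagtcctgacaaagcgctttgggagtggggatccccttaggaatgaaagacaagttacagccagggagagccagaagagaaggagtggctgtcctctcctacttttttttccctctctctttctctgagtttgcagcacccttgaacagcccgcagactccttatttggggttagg
AGGTCA began at position -161 on the plus strand, counted from the Igf1 start that the promoter table uses, and did not occur in the Pdgfc stretch. Searched on both strands of 32851 upstream windows of 250 bases, AGGTCA was present in 14.0%. Neither stretch held TGACTCA (found in 4.46% of windows), TGACGTCA (1.55%) or TATAAA (12.4%), a kappaB type site (1.41%), or AGGTCA repeated with a spacer, which would overlap the single motif. A match describes letters only. The whole RefSeq interval of Igf1 begins earlier, at 87858265 on chromosome 10, so the window shown lies inside that interval and not before its first base.

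Signals below are the authors' deposited linear values of the tested probe set, BALB/c before BL6. A change is a fitted difference of log2(signal + 16) from which the median change over the 12429 tested genes was subtracted, and ± gives its standard error in the model. All changes below are in log2 units. The median change itself was -0.41 for LPS, 0.22 for Ro, 0.02 for RA and 0.14 for BALB/c against BL6. Of the calls over all genes, 18.7% were higher with LPS, against 45.9% under quantile normalization, 76.3% against 53.4% were higher with Ro, and 75% against 47.1% were higher in BALB/c. Tests were made at the deposited scaling with limma, on the change before the median was subtracted. The words "rose" and "fell" refer to an adjusted p below 0.05 in these tests. A printed change near that of the median gene can therefore carry a small p, and a call does not mean a change beyond the median gene. Background means a signal below 41.8, the highest of the array medians, and no fold is given where a group mean was below it.

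Igf1 was lower with Ro in both strains and both LPS states. Without retinoid its signal was 2118 and 3811, with RA 4797 and 8608, and with Ro 108 and 472. With LPS the corresponding signals were 1676 and 3558 without retinoid, 3774 and 6505 with RA, and 75.6 and 395 with Ro. All 4 Ro arrays lay below all 8 other arrays, and within each strain the RA array was the highest of its LPS state. By a looser measure, 6.95% of tested genes had Ro arrays that did not overlap those without retinoid, in either direction and leaving RA arrays aside. With Ro and no LPS Igf1 fell by 3.70 ± 0.34 (13.0-fold, adjusted p = 0.0017, limma), and with LPS it fell by 3.95 ± 0.34 (15.4-fold, adjusted p = 2.4e-04, limma). For this probe set a difference between the LPS states was not shown (interaction -0.27 ± 0.49, adjusted p = 0.936, limma). In BALB/c alone the averaged change was -4.26 ± 0.21 and in BL6 alone -3.40 ± 0.23. RA, at its lower labelled dose, gave 1.20 ± 0.34 without LPS (adjusted p = 0.304, limma) and 0.94 ± 0.34 with LPS (adjusted p = 0.435, limma), neither past the threshold. Without strain as a block the fall with Ro in cultures without LPS did not pass (adjusted p = 0.0913, limma).

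**Figure D1:**
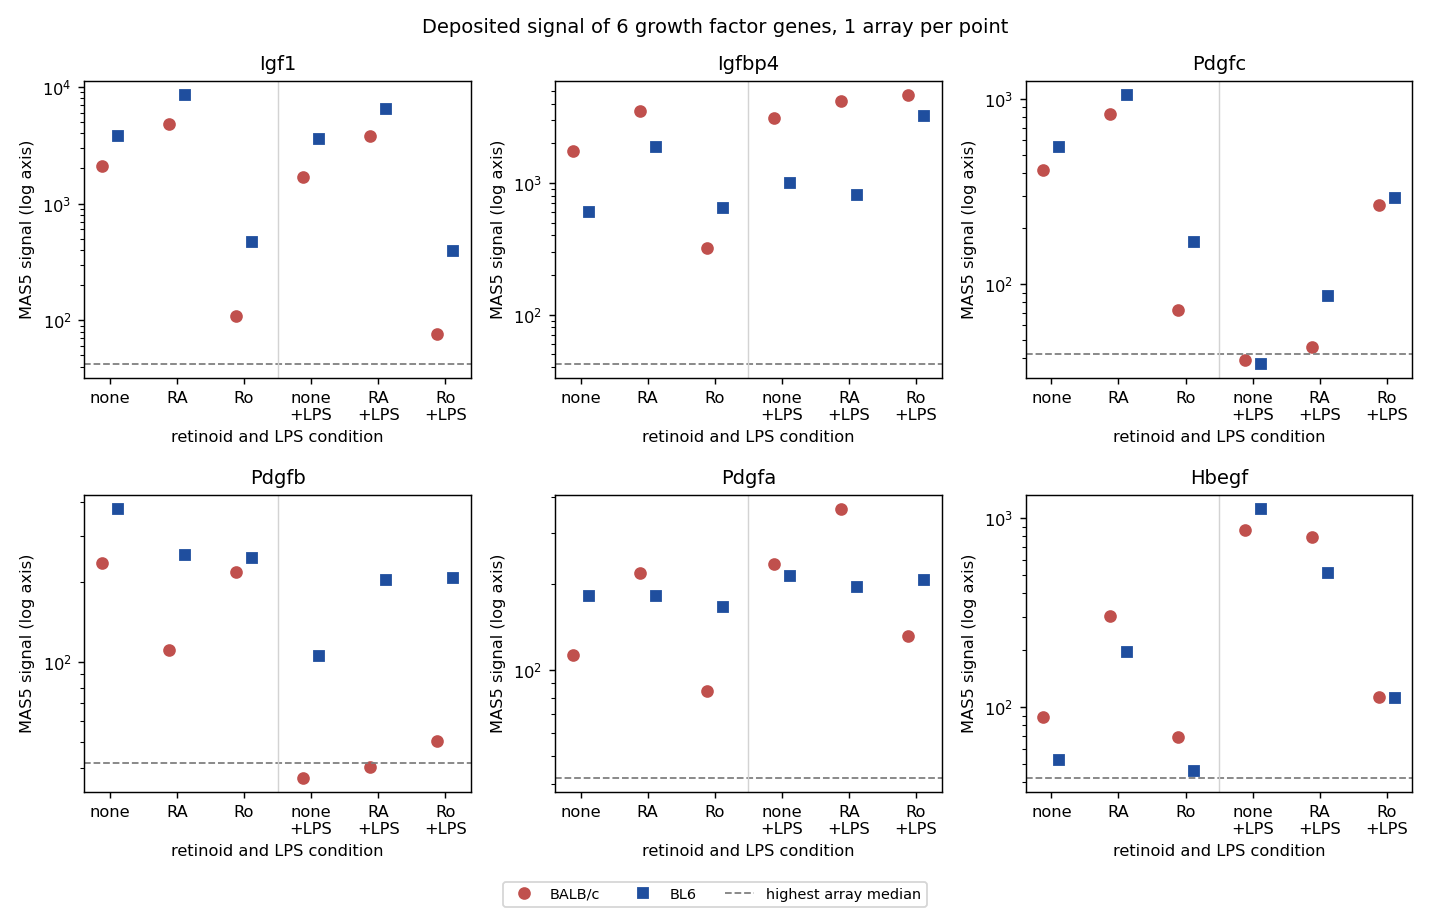
Deposited MAS5 signal (log axis) of the tested probe set of 6 growth factor genes in the 6 conditions; each point is 1 array, circles BALB/c and squares BL6, and the dashed line is the highest array median (41.8). Igf1 lies lowest on the 4 Ro arrays, Hbegf highest on the LPS arrays without Ro, and Pdgfc is high without LPS except with Ro and low with LPS except with Ro.

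The 4 Igf1 probe sets disagreed on LPS. The tested probe set, 1452014_a_at, had an averaged LPS change of 0.10 ± 0.19 (adjusted p = 0.18, limma). Fitted probe set by probe set, 1434413_at fell by 2.61 ± 0.41 (adjusted p = 5.8e-05, limma) and 1437401_at fell by 2.40 ± 0.40 (adjusted p = 7.9e-05, limma), while 1419519_at fell by 0.64 ± 0.19 (adjusted p = 4.8e-04, limma). Probe set 1434413_at went from 794 and 1363 to 26.8 and 33.0 without retinoid, from 1619 and 2881 to 102 and 647 with RA, and from 51.2 and 162 to 4.97 and 47.3 with Ro. Every LPS array of this probe set lay below the matched array without LPS, and the LPS arrays without retinoid lay at background. The LPS change within the 6 matched pairs of arrays was lower than that of 1452014_a_at in 6 of 6 pairs for each of the 3 other probe sets. The difference was -2.71 ± 1.5 (SD, n = 6) for 1434413_at, -2.5 ± 1.48 for 1437401_at and -0.75 ± 0.56 for 1419519_at. In an exact two-sided sign-flip permutation test each of these 3 differences had p = 0.0312, the smallest that 6 pairs can give, and the same value after Benjamini-Hochberg adjustment. The test was chosen after the values were seen, and 6 of 6 lower pairs fix its p, so it adds nothing to that count. The pairs span the retinoid conditions and both strains and are not replicates. All 3 differences share the values of 1452014_a_at. All 4 probe sets fell with Ro in cultures without LPS (adjusted p up to 0.00357, limma). With LPS, 1452014_a_at and 1419519_at fell with Ro, and 1434413_at and 1437401_at had -0.61 ± 0.44 and -0.72 ± 0.41, with both groups' arrays near background. For 1434413_at the BL6 array with Ro and LPS (47.3) lay above the BL6 array with LPS alone (33.0). The interaction of Ro with LPS was 2.79 ± 0.62 for 1434413_at (adjusted p = 0.0607, limma) and 2.74 ± 0.58 for 1437401_at (adjusted p = 0.0513, limma). Neither passed the threshold, and 1419519_at had 0.72 ± 0.41 (adjusted p = 0.344, limma). Where the probes lie in Igf1 transcripts was not analysed here.

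**Figure D2:**
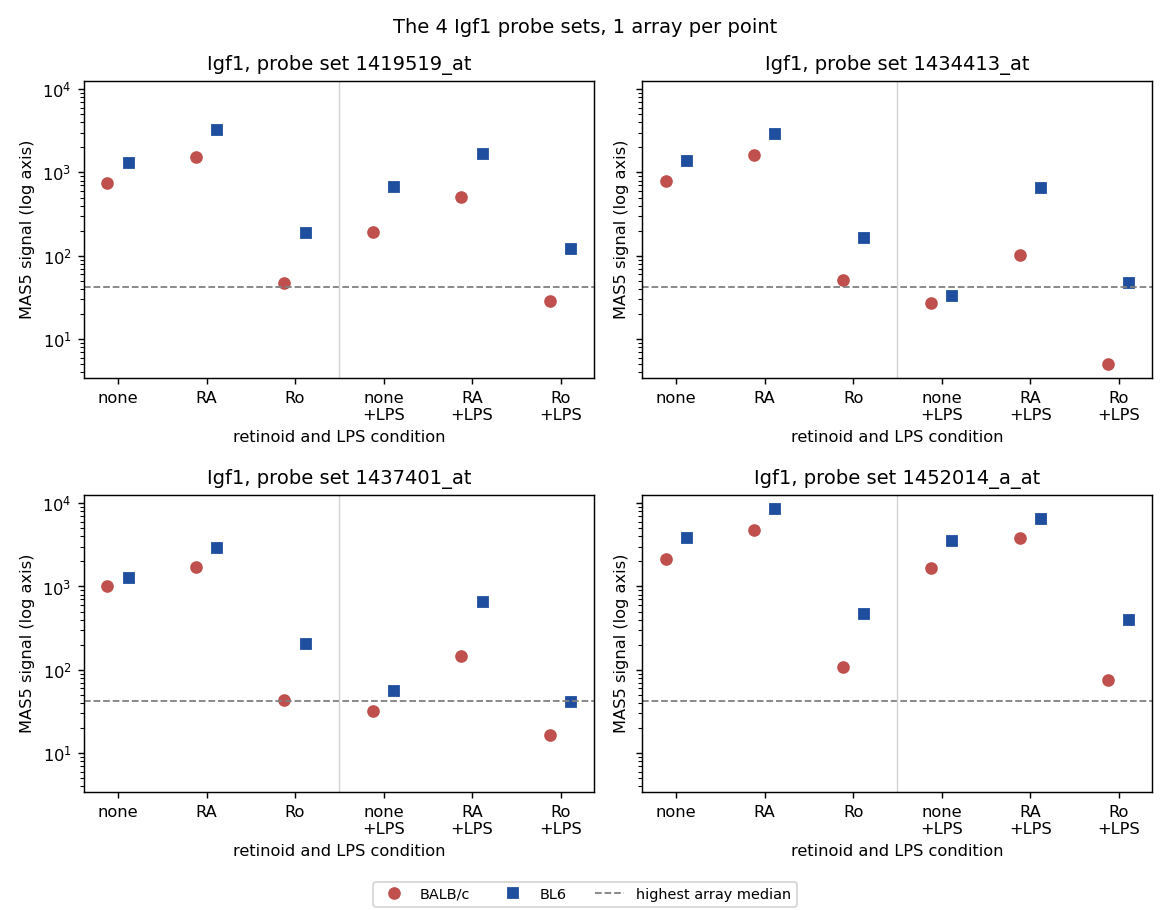
Deposited MAS5 signal (shared log axis) of the 4 probe sets annotated to Igf1; each point is 1 array, circles BALB/c and squares BL6, and the dashed line is the highest array median (41.8). Between the conditions without retinoid, 1434413_at goes from 794 and 1363 to 26.8 and 33.0 with LPS, whereas 1452014_a_at goes from 2118 and 3811 to 1676 and 3558.

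Igf1 also differed between the strains. Its signal was higher in BL6 than in BALB/c in 6 of 6 conditions, by 1.72-fold to 5.22-fold in deposited signal. In the fit BALB/c was lower, with -1.42 ± 0.19 (2.68-fold, adjusted p = 0.0016, limma). On their own, 1434413_at (adjusted p = 0.0619, limma) and 1437401_at (adjusted p = 0.0854, limma) did not pass for strain. Over the 12 arrays the tested genes whose pattern was most like that of Igf1 were Gpnmb (Pearson's r = 0.968) and Creg1 (r = 0.962), given as a description, since the arrays share their conditions. Markers of macrophages and monocytes moved with Igf1 under Ro. Of 13 tested markers 6 fell and none rose, against 4.35% of all tested genes lower with Ro: Trem2 (-3.05 ± 0.29), Mrc1, Cd68, Mertk, Ccr2 and Cd14. Of 14 dendritic cell markers 4 rose with Ro and none fell: Zbtb46 (1.74 ± 0.30), Irf4 (1.42 ± 0.32), Dpp4 (1.22 ± 0.25) and Ciita (1.20 ± 0.29), against 14.0% of all tested genes higher. The summed signal of the 13 genes was 60832 and 63788 with Ro and 67999 and 71943 without retinoid, and with LPS 18260 and 24933 against 53166 and 58648, each range over both strains. None of the 13 was below the array median on all arrays, and their part in the Igf1 result was not tested. Stromal markers, another possible source of growth factors, summed to between 354 and 1215 over 15 genes on all arrays, and 1 of 12 tested rose with Ro.

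Igfbp4, the binding protein gene, was higher with LPS in Ro cultures. Its signal was 1736 and 597 without retinoid, 3513 and 1880 with RA and 320 and 641 with Ro. With LPS it was 3125 and 1006 without retinoid, 4220 and 804 with RA, and 4693 and 3239 with Ro. The LPS arrays with Ro thus lay above the Ro arrays without LPS in both strains, and Igfbp4 rose there by 3.40 ± 0.58 (10.6-fold, adjusted p = 0.00281, limma). The change was 2.24 without the BALB/c Ro array, the lowest of all, and still past the threshold (adjusted p = 0.022, limma), and 4.59 without the BL6 Ro array. Without retinoid the LPS change was 1.31 ± 0.58 and with RA -0.07 ± 0.58, neither past the threshold. The difference between the LPS changes with Ro and without retinoid was 2.13 ± 0.81 (adjusted p = 0.224, limma) and was not shown. Of its 6 probe sets 5 rose with LPS in Ro cultures when each was tested on its own, and 1437406_x_at had 1.89 ± 0.76 (adjusted p = 0.156, limma). BALB/c signals were above BL6 in 5 of 6 conditions, with a fitted difference of 0.85 ± 0.52 (adjusted p = 0.221, limma). Of its 6 probe sets on their own, 1421991_a_at was higher in BALB/c (2.00 ± 0.47, adjusted p = 0.00781, limma) and the other 5 did not pass for strain. The averaged LPS changes of the 6 lay between 1.24 and 1.72, and 2 of them passed the threshold. Tested as a gene, Igfbp4 had an averaged LPS change of 1.53 ± 0.52 (adjusted p = 0.0831, limma), not past the threshold. Averaged from the model of 6 conditions, it had 1.53 ± 0.33 and passed (adjusted p = 0.0123, limma). The genes most like Igfbp4 over the 12 arrays were Inpp5a (r = 0.909) and Fut8 (r = 0.882).

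Pdgfc, a PDGF chain gene, changed in opposite directions with LPS according to the retinoid condition. Without LPS its signal was 412 and 553 without retinoid, 830 and 1056 with RA, and 73.0 and 169 with Ro. With LPS it was 38.8 and 36.9 without retinoid, at background, 45.6 and 86.9 with RA, and 267 and 292 with Ro. Both strains had the same order: the Ro arrays were lowest of the 3 retinoid conditions without LPS and highest with LPS.

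With LPS Pdgfc fell by 2.67 ± 0.30 without retinoid (adjusted p = 4.6e-05, limma), and with RA it fell by 3.18 ± 0.30 (9.07-fold, adjusted p = 3.0e-05, limma). In Ro cultures it rose with LPS by 1.55 ± 0.30 (2.92-fold, adjusted p = 0.0122, limma). The difference of the LPS change between Ro and no retinoid was 4.26 ± 0.43 (adjusted p = 0.00175, limma), against 0.668% of all tested genes past the threshold in this interaction, and it remained past it with each array left out. Against no retinoid, Pdgfc fell by 2.10 ± 0.30 with Ro and no LPS (4.3-fold, adjusted p = 0.00877, limma) and rose with Ro in LPS cultures by 2.17 ± 0.30 (adjusted p = 7.9e-04, limma). RA gave 0.98 ± 0.30 without LPS (adjusted p = 0.365, limma) and 0.49 ± 0.30 with LPS (adjusted p = 0.607, limma). The rise with LPS in Ro cultures was 1.20 without the BALB/c Ro array (adjusted p = 0.168, limma) and 1.19 without the BALB/c array with Ro and LPS (adjusted p = 0.108, limma). It did not pass without strain as a block (adjusted p = 0.0621, limma). The fall with Ro in cultures without LPS was lost without the BALB/c control array (-2.18, adjusted p = 0.0579, limma), the BL6 control array (-2.04, adjusted p = 0.0859, limma), the BALB/c Ro array (-1.74, adjusted p = 0.0962, limma) or the block (adjusted p = 0.071, limma). The second probe set, 1419123_a_at, had an interaction of 3.78 ± 0.58 (adjusted p = 0.0148, limma). On its own it did not pass for LPS in Ro cultures (1.26 ± 0.41, adjusted p = 0.125, limma) or for Ro without LPS (-1.70 ± 0.41, adjusted p = 0.0824, limma). The genes most like Pdgfc over the 12 arrays were Anxa3 and Prkca, both with r = 0.907.

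**Figure D3:**
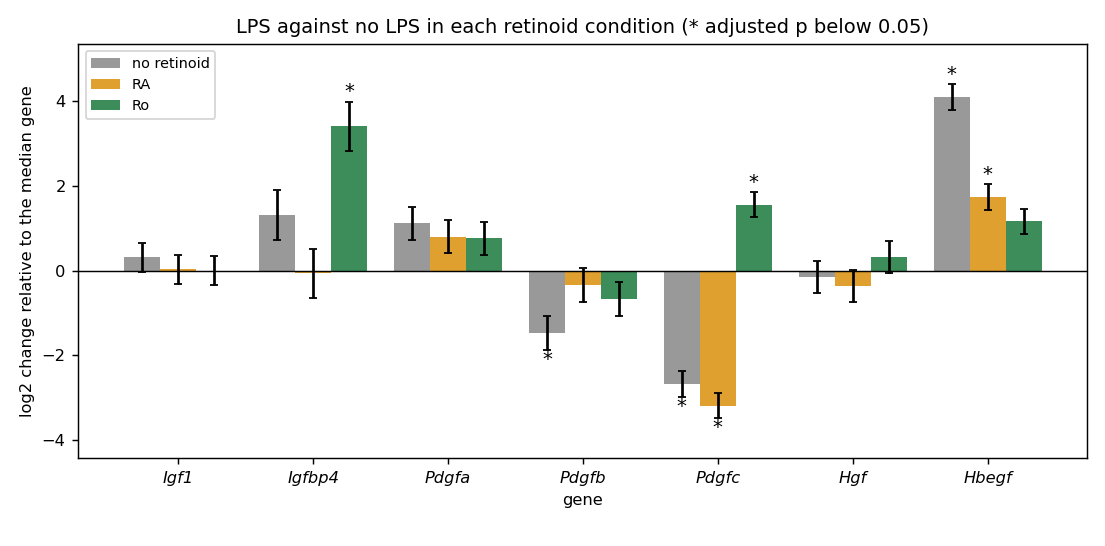
Log2 change with LPS relative to the median gene (bars, with the model's standard error) for the 7 tested growth factor genes in cultures without retinoid, with RA and with Ro; an asterisk marks an adjusted p below 0.05. Pdgfc has -2.67 and -3.18 without retinoid and with RA but 1.55 with Ro, Hbegf has 4.09, 1.73 and 1.16, and Igfbp4 has 3.40 with Ro.

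Pdgfb, the chain of platelet-derived growth factor B, was lower with LPS. Without LPS its signal was 237 and 379 without retinoid, 111 and 254 with RA, and 219 and 246 with Ro. With LPS it was 36.4 and 105, 40.1 and 204, and 50.4 and 208 in the same order. Each LPS array lay below its matched array, and the BALB/c LPS arrays were close to background. Over all conditions Pdgfb fell by 0.84 ± 0.27 with LPS (1.79-fold, adjusted p = 0.00156, limma), and the value was -1.23 ± 0.27 in BALB/c alone and -0.43 ± 0.35 in BL6 alone (adjusted p = 0.144, limma). Without retinoid it fell by 1.47 ± 0.40 (2.76-fold, adjusted p = 0.00265, limma), a call lost without the strain block (adjusted p = 0.0595, limma). The strain by LPS interaction was -0.77 ± 0.46 (adjusted p = 0.438, limma), so a strain difference of this response was not shown. Pdgfb was higher in BL6 in 6 of 6 conditions, and BALB/c was lower, with -1.28 ± 0.27 (2.43-fold, adjusted p = 0.0148, limma). Its second probe set, 1450413_at, had an LPS change of -0.18 ± 0.19, close to that of the median gene. The call of this probe set (adjusted p = 0.0158, limma) rests on the change before the median was subtracted. For strain 1450413_at did not pass (-0.54 ± 0.19, adjusted p = 0.182, limma). Them4 (r = 0.946) and Iah1 (r = 0.944) had the most similar pattern.

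Pdgfa, the A chain gene, had signals from 84.6 to 218 without LPS and from 131 to 365 with LPS, with overlapping groups. Its LPS change of 0.87 ± 0.21 was not past the threshold at the deposited scaling (adjusted p = 0.0799, limma) and was past it under quantile normalization (1.03 ± 0.22, adjusted p = 0.00226, limma). The second probe set, 1449187_at, had 0.17 ± 0.19. Pou2f3 (r = 0.925) and Ap3s1 (r = 0.890) were most like Pdgfa.

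Hgf, a ligand that acts on epithelial and endothelial cells, was close to background everywhere. Its tested probe set had signals from 18.2 to 75.8, above the array median on 8 of 12 arrays. No change of this probe set passed the threshold in the 14 comparisons, and its averaged LPS change was -0.08 ± 0.22 (adjusted p = 0.0756, limma). Of the other 2 probe sets, 1442884_at, with signals from 1.19 to 78.0, fell with LPS (-0.59 ± 0.32, adjusted p = 0.0166, limma) and with LPS without retinoid (-0.96 ± 0.50, adjusted p = 0.0299, limma). The averaged LPS change of 1451866_a_at was 0.09 ± 0.23 (adjusted p = 0.244, limma). No fold is given where these signals averaged below background. Ncam1 (r = 0.919) and Kcnip2 (r = 0.917) were most like it.

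Hbegf, the gene of a heparin-binding EGF family ligand, rose with LPS without retinoid and with RA. Without LPS its signal was 88.5 and 52.3 without retinoid, 302 and 195 with RA, and 69.5 and 45.9 with Ro. With LPS it was 868 and 1120 without retinoid, 790 and 510 with RA, and 113 and 111 with Ro. The LPS arrays with Ro lay below both RA arrays that had received no LPS.

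Without retinoid Hbegf rose with LPS by 4.09 ± 0.30 (17.1-fold, adjusted p = 2.5e-05, limma). With RA it rose by 1.73 ± 0.30 (3.32-fold, adjusted p = 0.00685, limma), and with Ro the change was 1.16 ± 0.30 (adjusted p = 0.0621, limma), which passed under quantile normalization (adjusted p = 0.00546, limma). In RA cultures this rise was lost without the BALB/c RA array that had LPS (1.47, adjusted p = 0.0577, limma) or the BL6 RA array (1.70, adjusted p = 0.0521, limma). In LPS cultures Hbegf fell by 3.25 ± 0.30 with Ro (9.52-fold, adjusted p = 3.4e-04, limma), and without LPS it had -0.38 ± 0.30 (adjusted p = 0.755, limma). The difference between these was -2.89 ± 0.43 (adjusted p = 0.0217, limma). It kept its size but not its call without the BALB/c Ro array (-2.80, adjusted p = 0.107, limma), the BALB/c array with Ro and LPS (-2.88, adjusted p = 0.12, limma), the BL6 control array (-2.82, adjusted p = 0.115, limma), the BL6 Ro array (-2.99, adjusted p = 0.0786, limma) or the BL6 array with LPS alone (-2.45, adjusted p = 0.102, limma), and without the block (adjusted p = 0.159, limma). RA without LPS gave 1.65 ± 0.30 (adjusted p = 0.0711, limma), higher in both strains, which passed under quantile normalization (adjusted p = 0.0391, limma). The difference of the RA change between LPS states was -2.36 ± 0.43 (adjusted p = 0.482, limma). The second probe set, 1418349_at, rose with LPS without retinoid by 2.82 ± 0.35, had -2.52 ± 0.35 with Ro in LPS cultures (adjusted p = 0.0019, limma), and did not pass for the interaction (-2.26 ± 0.50, adjusted p = 0.0832, limma). Hk2 (r = 0.975) and Mif (r = 0.958) were most like Hbegf.

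**Figure D4:**
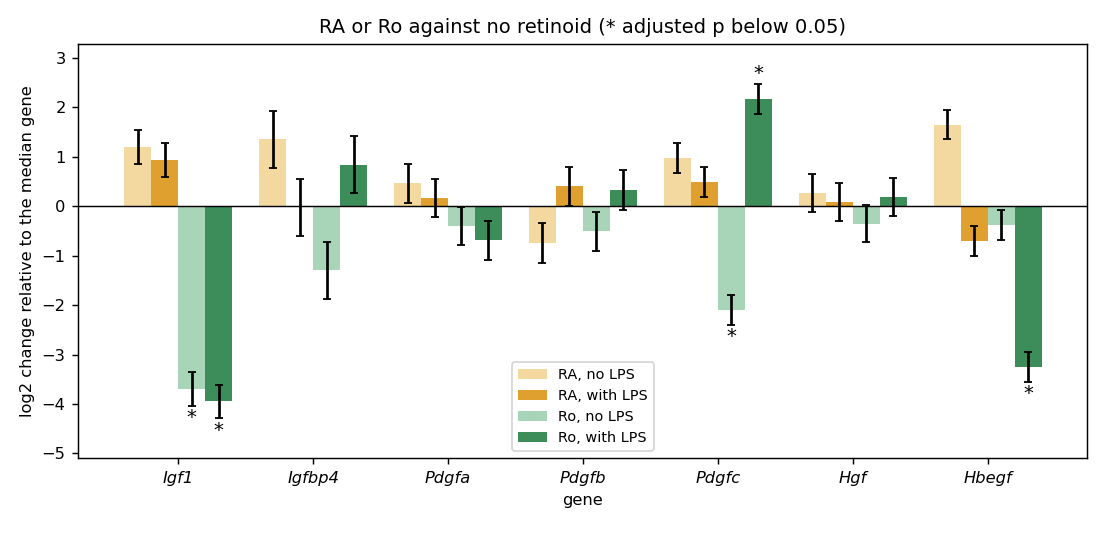
Log2 change with RA or Ro against no retinoid, relative to the median gene (bars, with the model's standard error), for the 7 tested growth factor genes without and with LPS; an asterisk marks an adjusted p below 0.05. Igf1 has -3.70 and -3.95 with Ro, Pdgfc -2.10 without LPS and 2.17 with LPS, and Hbegf -3.25 with LPS; no RA bar passes. The labelled doses of RA and Ro differ.

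Counted over the 7 tested genes, 1 rose and 2 fell in the averaged LPS comparison, against 10.9% of all tested genes higher and 47.7% lower. With Ro 0 rose and 2 fell (14.0% and 4.35% of all genes), and between the strains 0 were higher and 2 lower in BALB/c (11.4% and 3.81%). The 2 with Ro were Igf1 and Hbegf, the latter with -1.82 ± 0.46 (adjusted p = 0.0346, limma). That averaged value was lost without either array with LPS alone (-1.61 without BALB/c and -1.29 without BL6) or either array with Ro and LPS (-1.57 and -1.58), with adjusted p up to 0.115 (limma), in BALB/c alone (adjusted p = 0.229, limma), in BL6 alone (adjusted p = 0.195, limma) and without the block (adjusted p = 0.0579, limma). The averaged LPS fall of Pdgfc was -1.45 ± 0.64 (adjusted p = 0.0251, limma). It was lost without any 1 of the 8 arrays of the conditions without retinoid and with RA, at values from -1.32 to -1.17. It was also lost under quantile normalization (adjusted p = 0.102, limma) and in either strain alone (adjusted p up to 0.188, limma). Averaged from the model of 6 conditions instead, the LPS value of Pdgfc was again -1.45 and passed (adjusted p = 7.2e-06, limma). The Ro value of Hbegf was again -1.82 there and passed (adjusted p = 8.8e-04, limma). Igfbp4 also passed for LPS in that average. Within conditions, LPS raised 1 and lowered 2 of 7 without retinoid (7.98% and 37.5% of all genes), raised 1 and lowered 1 with RA (6.48% and 28.5%) and raised 2 and lowered 0 with Ro (5.95% and 23.9%). Ro raised 0 and lowered 2 without LPS (1.45% and 1.18% of all genes). With LPS Ro raised 1 and lowered 2, where 21.5% of all genes changed, 1986 of 12429 higher and 688 lower. For RA 0 of 7 passed in the averaged comparison (limma, 1 at an unadjusted p below 0.05, and 0% of all genes), 0 without LPS (4 at an unadjusted p below 0.05, 0.129% of all genes) and 0 with LPS (1 at an unadjusted p below 0.05, 0% of all genes). Under quantile normalization the count without LPS was 1, Hbegf. For the interaction of RA with LPS 0 of 7 passed (limma, 2 at an unadjusted p below 0.05, 0% of all genes). No strain by LPS interaction passed in the 7 genes (limma, 0 at an unadjusted p below 0.05, 0.121% of all genes).

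The pathway lists follow, each set beside all tested genes, of which 10.9% rose and 47.7% fell with LPS and 14.0% rose and 4.35% fell with Ro. Of 8 tested receptor genes 3 fell with LPS and none rose: Insr, the insulin receptor gene (-1.03 ± 0.20), Igf1r (-0.86 ± 0.38) and Erbb3 (-0.65 ± 0.25). Of these only Insr passed under quantile normalization, where 3 others rose, and none changed with Ro. The list's median change was 0.32 with LPS and -0.34 with Ro, where 0 is the median of all tested genes. Of 19 tested genes in the list of other ligands 2 rose and 6 fell with LPS, against 6 and 4 under quantile normalization. The list medians were 0.21 for LPS and -0.30 for Ro. Vegfa, the gene of an angiogenic factor, rose with LPS by 2.76 ± 0.21 and fell with Ro (-1.81 ± 0.25), and Osm, an interleukin 6 family cytokine gene, rose by 2.03 ± 0.29. Fgf13 (-2.47 ± 0.27) and Gas6, a ligand of TAM receptors (-2.41 ± 0.36), fell with LPS to background, and Vegfb fell as well (-1.05 ± 0.19). Fgf13 was listed by its family name and is not known as a secreted ligand. Pgf, the placental growth factor gene, rose with Ro by 1.18 ± 0.37, but not under quantile normalization (adjusted p = 0.0618, limma). In the list around other IGF binding proteins 5 genes were tested: Igfbp5, Igfbp6 and Igfbp7, and the stanniocalcin genes Stc1 and Stc2, which are not IGF binding proteins. Of these 5, 2 rose with LPS and none fell, Igfbp7 by 2.34 ± 0.53 and Stc2 by 1.14 ± 0.24, both from background. The medians were 0.42 for LPS and -0.29 for Ro.

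The list of ligand processing genes mixed proteases with protease inhibitors (Spint1, Spint2, Timp3), co-receptors (Nrp1, Nrp2) and other genes such as Cd9, Cd44 and Sparc. Its counts therefore do not describe ligand release alone. With LPS 11 of 21 tested were called, 1 higher and 10 lower, a share of falls near that of all tested genes (47.7%). Under quantile normalization 4 were higher and 7 lower. The medians were -0.18 for LPS and -0.27 for Ro. Plat, tissue plasminogen activator, rose by 2.96 ± 0.39 from background. Spint1, which encodes an inhibitor of the HGF activator, fell with LPS (-2.52 ± 0.27), as did Nrp1 (-2.34 ± 0.42) and Hgfac, the HGF activator gene, to background (-1.75 ± 0.36). With Ro 3 rose and none fell, and under quantile normalization 3 were higher and 2 lower, Rhbdf2 (adjusted p = 0.0175, limma) and Nrp2 (adjusted p = 0.0376, limma). The 3 that rose were Spint2 (1.53 ± 0.23), Spint1 (1.48 ± 0.33) and the matriptase gene St14 (0.85 ± 0.34), the last not under quantile normalization (adjusted p = 0.119, limma). Feedback inhibitors of receptor tyrosine kinases rose in 5 and fell in 6 of 17 with LPS, all 11 also under quantile normalization, where 7 rose and 6 fell, with medians of 0.14 for LPS and 0.38 for Ro. Errfi1, an inhibitor of EGF receptor signalling, rose by 1.66 ± 0.23, Spred1 by 1.49 ± 0.26 and Dusp5 by 1.24 ± 0.26, while Dusp6 (-2.38 ± 0.49), Sh2b3 (-1.26 ± 0.17) and Ptpn6 (-0.71 ± 0.19) fell. With Ro 7 of 17 rose and none fell, and 4 of the 7 also passed under quantile normalization. Grb10 rose by 1.21 ± 0.42 from background and Spred2 by 1.12 ± 0.27, and Cblb rose by 1.11 ± 0.38 but not under quantile normalization (adjusted p = 0.0735, limma). No gene of these 5 lists passed for RA (limma).

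Granulocyte markers moved with LPS as well. Of 10 tested 9 fell and 1 rose, against 47.7% and 10.9% of all tested genes, and the summed signal of 11 genes went from between 11518 and 56346 without LPS to between 480 and 5546 with LPS. Pf4, listed as a platelet marker, fell with Ro (-2.27 ± 0.34), as 1 of 7 in that list. Of the 13 macrophage and monocyte markers 8 fell with LPS and 1 rose, beside the same shares of all tested genes. Ccr2 (-5.84 ± 0.23), Mrc1 (-4.20 ± 0.33) and Trem2 (-2.57 ± 0.24) were among those that fell, and Cd14 rose (2.02 ± 0.15). Of 14 dendritic cell markers 6 fell with LPS and 2 rose. Of 5 mast cell and basophil markers 3 fell and 1 rose, and 3 of 3 eosinophil markers fell. In cultures without Ro the summed signal of the 13 macrophage and monocyte markers lay between 67999 and 88441 without LPS. With LPS it lay between 53166 and 69895. The part of these markers in the growth factor results was not tested.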

How the data were processed

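The authors deposited 1 linear intensity per probe set and array, and the submitters' processing notes name MAS5, with neither version nor scaling target. The array medians ran from 21.4 to 41.8 and the trimmed array means from 158 to 263. Of 45101 probe sets 34945 were annotated to 1 gene, 932 to several, and the rest were controls or unnamed. Annotation came from GEO's platform table, and 34741 single-gene probe sets had an identifier in the RefSeq gene list.

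The analysis used log2(signal + 16) without rescaling. Probe sets had to lie above the array median on at least 2 of 12 arrays, and each gene was represented by its kept probe set of highest mean log2 value (12429 genes). R 4.3.3 and limma 3.58.1 fitted the models (eBayes with a trend on intensity), with Benjamini-Hochberg adjustment over all tested genes and a threshold of 0.05. An additive model (retinoid, LPS, strain) gave the averaged comparisons, and a model with 1 term per condition and a strain term gave the others, interactions of Ro or RA with LPS included. An interaction of strain with LPS was added to the additive model. Strain was a block, because replicate 1 of every condition was BALB/c and replicate 2 was BL6. In a check of this pairing, the strain differences of any pair of conditions correlated across genes with r from 0.297 to 0.696 (15 pairs). Strain and any batch shared by same-numbered arrays cannot be told apart.

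All 9 genes named by the rule were to be described, with every probe set annotated to 1 of them. From each pathway list, up to 3 genes per direction that passed for LPS or Ro were named, largest change first, and for each tested growth factor gene the 2 other genes of highest correlation. The members, lists, tests and alternatives were chosen with earlier results of these data known. The alternatives were quantile normalization, an added 1 or 64, no filter or a stricter one (6 arrays), each probe set on its own, no block, no trend, each strain alone, averages from the model of 6 conditions, the 4 arrays of a comparison alone, and leaving out each array. The test between Igf1 probe sets was chosen after their values were seen, as were the cell type markers named singly and Rhbdf2 and Nrp2. Python 3.11.15 with pandas 2.3.3 made the tables, and matplotlib 3.10.9 drew the figures.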

Additional observations from a re-analysis of the deposited data

Results flagged for a closer look

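For Pdgfc the effect of Ro differed between cultures without and with LPS, by 4.26 ± 0.43 on the log2 scale in a test of the interaction (limma, adjusted p = 0.00175). For Hbegf the effect of Ro also differed between the LPS states, by -2.89 ± 0.43 (limma, adjusted p = 0.0217), and the values without single arrays are given with that result above. With 2 arrays per condition, no test for a sample far from the others in its group was possible.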

How the results depend on the processing

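Counts of growth factor genes past the threshold out of 7 changed by more than 1.5 times as follows. In the averaged LPS comparison (3 genes) the count was 1 in BL6 alone and 6 with each probe set on its own. For Ro (2) it was 1 without the replicate block, in BALB/c alone and in BL6 alone, and 1 to 2 with single arrays left out. LPS without retinoid (3) gave 5 with each probe set on its own. LPS with RA (2) gave 1 to 2 with arrays left out. LPS with Ro (2) gave 1 without the replicate block and 1 to 3 with arrays left out. RA without LPS (0) gave 1 under quantile normalization and 5 when its 4 arrays were fitted alone. The share of all genes called in that fit of 4 arrays is not given here, so the 5 is not read as a result about RA. Ro without LPS (2) gave 0 without the replicate block and 1 to 2 with arrays left out. The interaction of Ro with LPS (2) gave 1 without the replicate block and 1 to 2 with arrays left out. No called change of a growth factor gene turned its direction under any alternative run. The limits are 2 arrays per condition and signals near background for Hgf, Ereg and, with LPS, Pdgfc, whose size of change depends on the added 16; the cause of each lost call was not tested.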
